A study of Mus musculus with 4 samples.

Results

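CD11c+ MHC-II+ cells sorted from melanomas injected with 2 adenoviruses together, library Ad-COMBO, were compared with those from melanomas injected with the CD40 ligand virus alone, library Ad-MEM40. The contrast was chosen to describe what the interferon beta virus may have added on top of CD40 ligand. Its members are the barcodes of these libraries in which 500 genes or more were detected and mitochondrial (mt-) genes made up no more than 10% of the unique molecular identifiers (UMIs). They number 16327 of the 26882 cells kept in the series, 671 from Ad-COMBO and 15656 from Ad-MEM40. All C57BL/6 mice carried subcutaneous tumors grown from 500000 B16-F10 cells, a pigmented mouse melanoma line, and the tumors were injected with adenovirus on day 12. Ad-MEM40 tumors received the ISF35 virus, which carries a membrane-stabilised CD40 ligand, and Ad-COMBO tumors received ISF35 and the mIFNB virus, so the control of this contrast was itself CD40 ligand treated. The remaining libraries were Ad-mIFNB (mIFNB virus alone) and Ad-Null (a NULL virus). Each library pooled sorted cells from 3 similarly treated tumors and was made with 10x Genomics 3′ chemistry. The labels call the cells dendritic cells, but the sort also held macrophage-marked cells: over all kept Ad-MEM40 cells 12 macrophage markers summed to 5747 counts per 1000000 UMIs (CPM), against 1736 CPM for 12 markers of conventional type 1 dendritic cells, and in Ad-COMBO the sums were 3939 and 3231 CPM. Mouse age, virus dose and time from injection to sorting are not given in the sources used here. With 1 pooled library a side there is no replicate and no test. Every interval below is a 95% interval for counting error only, and any difference may belong to the libraries rather than the viruses.

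Type I interferons such as interferon beta act on nearly all nucleated cells through the receptor made of Ifnar1 and Ifnar2. The receptor activates transcription factors, among them Stat2 and Irf9, that bind the interferon-stimulated response element (ISRE) in the promoters of antiviral genes. CD40 ligand acts on antigen-presenting cells that carry Cd40 and signals mainly through NF-kB, which raises costimulatory molecules and cytokines. Among tumor antigen-presenting cells, Xcr1 and Clec9a mark conventional type 1 dendritic cells (cDC1), which cross-present antigen, Ccr7 and Fscn1 mark mature dendritic cells that can migrate to lymph nodes, and the complement genes C1qa, C1qb and C1qc mark macrophages.

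Promoters of 4 of the 12 genes with the highest Ad-COMBO to Ad-MEM40 ratio over all kept cells are shown, because an ISRE is the element through which interferon beta is known to act. Ifit1bl1, Ifit3b and Ifit1 belong to the antiviral Ifit family on chromosome 19, and Rsad2 encodes the antiviral enzyme viperin. Each sequence is the 200 bases before the RefSeq start of the gene in GRCm38.p6, 5′ to 3′ on the gene's strand. Capitals mark the ISRE letters, searched as GAAANNGAAA or its reverse complement TTTCNNTTTC. The windows are chr19:34601969-34602168 (minus strand) for Ifit1bl1, chr19:34607757-34607956 (plus) for Ifit3b, chr19:34640689-34640888 (plus) for Ifit1 and chr12:26456453-26456652 (minus) for Rsad2.
Ifit1bl1: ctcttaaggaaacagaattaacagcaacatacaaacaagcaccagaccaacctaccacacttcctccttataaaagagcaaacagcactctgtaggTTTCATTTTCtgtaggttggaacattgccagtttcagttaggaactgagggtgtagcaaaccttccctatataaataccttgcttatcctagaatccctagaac
Ifit3b: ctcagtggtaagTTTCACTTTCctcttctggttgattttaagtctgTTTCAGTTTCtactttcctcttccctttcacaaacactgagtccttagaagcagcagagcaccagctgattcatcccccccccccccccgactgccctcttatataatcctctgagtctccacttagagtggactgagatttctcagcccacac
Ifit1: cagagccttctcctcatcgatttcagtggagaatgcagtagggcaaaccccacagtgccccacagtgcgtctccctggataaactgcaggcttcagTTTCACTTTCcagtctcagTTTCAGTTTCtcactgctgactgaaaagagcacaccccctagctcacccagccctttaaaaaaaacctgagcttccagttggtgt
Rsad2: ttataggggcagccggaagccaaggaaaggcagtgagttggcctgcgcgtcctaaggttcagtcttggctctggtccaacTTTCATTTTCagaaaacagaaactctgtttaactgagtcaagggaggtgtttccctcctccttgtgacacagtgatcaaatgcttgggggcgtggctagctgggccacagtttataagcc
The match stood 104 to 95 bases before the start of Ifit1bl1 and 120 to 111 bases before that of Rsad2. Ifit1 held a pair of matches, at 104 to 95 and 85 to 76 bases, and Ifit3b a pair at 188 to 179 and 154 to 145 bases. The search covered 300 bases of every gene in the RefSeq table, from 250 before to 50 after a start, and a gene with several starts counted if any had a match. Over the 12 highest genes, 5 (41.7%) held these letters, those of Ifit1, Ifit1bl1, Ifit3, Ifit3b and Rsad2, against 1079 of all 27025 genes (3.99%). Sct, Apod, Ly6c2, Slfn4, Cmpk2, Oasl1 and Ifit2 had none. Of the 25 type I interferon response genes found in the table, 15 (60%) had a match. The letters TTCNNNGAA, the gamma-activated site (GAS) of interferon gamma signaling, were in 1 of the 12 (Ifit2) and in 2582 of all genes (9.55%). The NF-kB consensus was in 2 of the 12 (Ifit2 and Oasl1) and in 2581 of all genes (9.55%). These are matches of letters and were not tested as binding sites.

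Kept cells of Ad-COMBO held 9748429 UMIs in all with a median of 11434 per cell, and those of Ad-MEM40 held 181854752 with a median of 9483. The filter kept 70.3% of 954 barcodes in Ad-COMBO and 86.1% of 18185 in Ad-MEM40. In Ad-MEM40 both barcodes and kept cells outnumbered the upper limit of cells loaded per library that the sample labels give. Its bearing on doublets and on the values below was not tested. The pair of libraries shared 11 barcodes, 8 of them kept in each. Of the genes the viruses carry, Ifnb1 had 28 UMIs in 8 Ad-COMBO cells, 17 of them in 1 cell, or 2.87 CPM (interval 1.91 to 4.15), and 184 UMIs in 68 Ad-MEM40 cells, or 1.01 CPM (0.871 to 1.17). Ad-mIFNB had 3.15 CPM and Ad-Null 0.628 CPM of Ifnb1. Cd40lg had 91 UMIs in 28 Ad-MEM40 cells and none in kept Ad-COMBO cells, where the interval of a count of 0 reaches 0.378 CPM. Cd40lg was thus not detected in the kept cells of a library labelled as CD40 ligand treated, and had 1 UMI over all its barcodes. The mouse gene may not capture a vector transcript, and these counts check only whether mouse Cd40lg RNA was in the sorted cells. The pair of libraries labelled as CD40 ligand treated thus differed in Cd40lg counts, and whether these come from the vector was not tested. Each library's kept cells were also gated on UMIs. Cells with at least 1 UMI of each gate gene entered a class, and cells passing more than 1 gate entered none. The classes were checked on markers that no gate used. The 10 other cDC1 markers summed to 6693 CPM in Ad-COMBO and 5466 CPM in Ad-MEM40 in the Xcr1+Clec9a class, and to between 834 and 1794 CPM in the other classes. The 10 other mature dendritic cell markers summed to 4650 and 3225 CPM in the Ccr7+Fscn1 class, and to between 109 and 238 CPM in the other classes. The 9 other macrophage markers summed to 6663 and 4733 CPM in the C1qa+C1qb+C1qc class, and to between 175 and 690 CPM in the other classes.

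The make-up of the sort differed between the libraries, with more cDC1-gated and mature-gated cells and fewer macrophage-gated cells where interferon beta was added. Xcr1+Clec9a cells were 112 of 671 in Ad-COMBO (16.7%, Clopper-Pearson interval 13.9 to 19.7) and 1312 of 15656 in Ad-MEM40 (8.38%, 7.95 to 8.83). Ccr7+Fscn1 cells were 109 (16.2%, 13.5 to 19.3) and 832 (5.31%, 4.97 to 5.68). C1qa+C1qb+C1qc cells were 96 (14.3%, 11.7 to 17.2) and 5152 (32.9%, 32.2 to 33.6). The intervals did not overlap for any of the 3 gates, but they cover the counting of cells within 1 library a side and not variation between libraries. No gate was passed by 329 Ad-COMBO cells (49.0%) and 7193 Ad-MEM40 cells (45.9%), and more than 1 by 25 (3.73%) and 1167 (7.45%). Median UMIs per cell, which bear on who passes a gate, were 23454 and 13185 in the Xcr1+Clec9a classes, 8696 and 6937 in the Ccr7+Fscn1 classes and 16315.5 and 11014 in the C1qa+C1qb+C1qc classes. With every cell thinned to 2000 UMIs before gating, the Ad-COMBO to Ad-MEM40 ratios of shares were 2.25, 2.90 and 0.457, against 1.99, 3.06 and 0.435 with all UMIs. Keeping cells of more than 1 gate in each gate gave ratios of 1.69, 1.80 and 0.423. Ccr7+Fscn1 cells were then 126 in Ad-COMBO (18.8%) and 1632 in Ad-MEM40 (10.4%). The size of the mature-gate ratio thus depended on leaving such cells out. Without CD40 ligand, Ad-mIFNB against Ad-Null gave 12.3% and 11.8% for Xcr1+Clec9a, 9.56% and 5.04% for Ccr7+Fscn1, and 14.3% and 24.8% for C1qa+C1qb+C1qc.

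**Figure D1:**
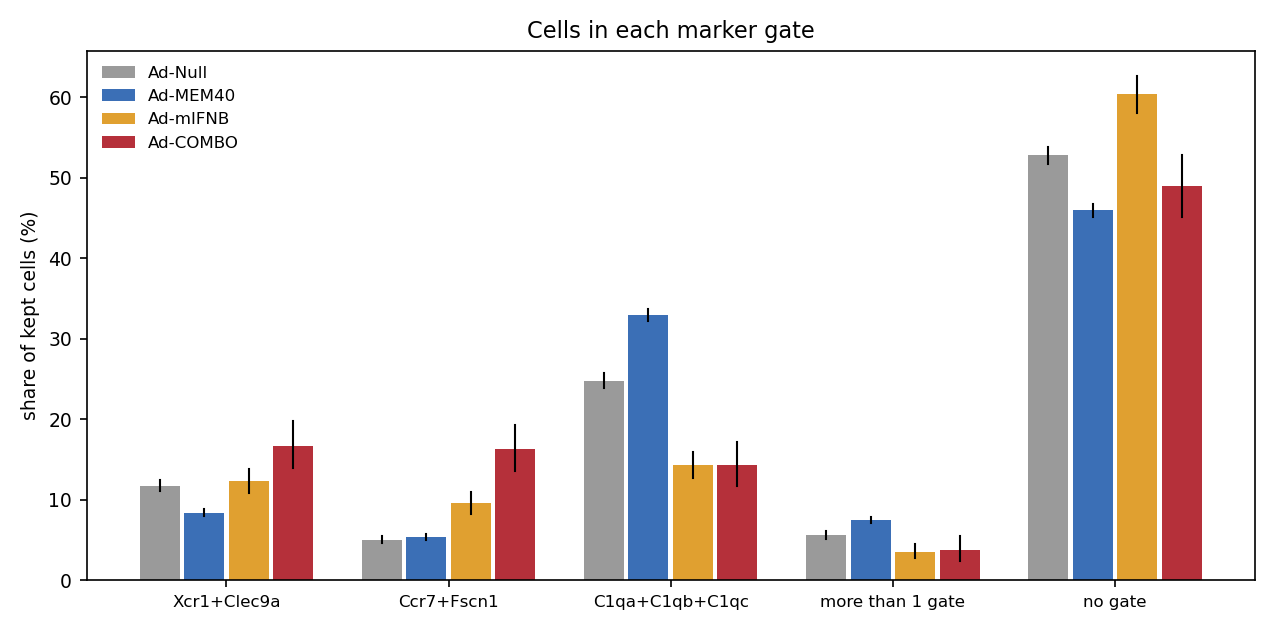
Share of kept cells in each gate (y axis, percent) for the 4 libraries, with 95% Clopper-Pearson intervals as error bars. Ad-COMBO has the highest bars for Xcr1+Clec9a (16.7%) and Ccr7+Fscn1 (16.2%), and C1qa+C1qb+C1qc cells make up 14.3% of each library with the interferon beta virus.

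Over all kept cells the 12 genes highest in Ad-COMBO included the interferon-stimulated genes Ifit1bl1, Ifit3b, Rsad2, Ifit1, Ifit2, Ifit3, Oasl1 and Cmpk2. The 12 lowest included the macrophage and monocyte genes Retnla, F13a1 and Lyz2, the pigment genes Dct, Mlana and Tyrp1, the dendritic cell lectin gene Cd209a and the fibroblast marker Sparc. Levels are summed UMIs as CPM, and a difference is log2 of the ratio Ad-COMBO to Ad-MEM40 after 5 CPM was added to each level, which understates the difference of low genes. Among 7661 genes with a mean of at least 10 CPM, 696 (9.08%) were past 1.5-fold higher, 545 (7.11%) were past 1.5-fold lower, and the median log2 ratio was -0.05. Sums over all kept cells mix the classes, so a different share of a class and a different level within it cannot be told apart there.

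Ifit1bl1 had 10.7 CPM in Ad-MEM40 and 165 CPM (157 to 174) in Ad-COMBO, a log2 ratio of 3.44. Rsad2 had 136 and 1048 CPM (2.90), Ifit1 51.8 and 406 CPM (2.85), Ifit3b 13.6 and 153 CPM (3.09) and Oasl1, a relative of the oligoadenylate synthetases, 94.1 and 492 CPM (2.33). The same genes were also higher where interferon beta was given without CD40 ligand. Ifit1bl1 had 11.2 CPM in Ad-Null and 170 CPM in Ad-mIFNB, and Rsad2 had 104 and 855 CPM. Oasl1 had 84.4 and 318 CPM (1.85), so its Ad-mIFNB level was below the 492 CPM of Ad-COMBO. In each of these genes both libraries with the interferon beta virus lay above both without it. Ifit3 and Ifit3b, and Ifit1 and Ifit1bl1, are near-identical copies in part, so the split of reads between them is uncertain.

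The other genes among the 12 highest were Sct, Apod, Ly6c2, Ifit2, Ifit3, Slfn4 and Cmpk2. Sct, at chr7:141278330-141279133 in GRCm38, encodes the hormone secretin and had 2.35 CPM in Ad-MEM40 and 60.0 CPM in Ad-COMBO (3.14), with 2.98 and 53.2 CPM in Ad-Null and Ad-mIFNB. In Ad-COMBO its 585 UMIs came from 108 cells, 74 of them in 1 cell. Apod, a lipocalin, had 8.08 and 98.1 CPM (2.98). Ly6c2, a surface protein of monocytes and plasmacytoid dendritic cells, had 102 and 620 CPM (2.55), with 258 of its 6044 Ad-COMBO UMIs in 1 cell. Sct was not spread over all classes: its 135, 171 and 220 Ad-COMBO UMIs in the Xcr1+Clec9a, Ccr7+Fscn1 and ungated cells stood beside 1 UMI in the C1qa+C1qb+C1qc cells.

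At the low end, Retnla, at chr16:48842551-48844461, which encodes a secreted protein of alternatively activated macrophages, had 266 CPM in Ad-MEM40 and 0.923 CPM in Ad-COMBO (-5.51), where 9 UMIs came from 4 cells. It had 206 CPM in Ad-Null and 13.6 CPM in Ad-mIFNB. F13a1, a monocyte and macrophage coagulation factor gene, had 91.9 and 9.23 CPM (-2.77), Cd209a, a lectin of monocyte-derived and type 2 dendritic cells, 73.5 and 14.3 CPM (-2.03), and the lysozyme gene Lyz2 2582 and 751 CPM (-1.77). With the Ad-COMBO classes weighted to the Ad-MEM40 shares the ratio of Lyz2 was -0.82, still past 1.5-fold, and that of Retnla was -5.29. Dct, Mlana, Tyrp1 and Syt4 were also among the 12 lowest, the former 3 being pigment genes of the tumor cells, as were Ptgds, Car6, Sparc and Selenop. Dct had 468 and 77.0 CPM (-2.53), with 619 of its 751 Ad-COMBO UMIs in 1 cell. Cells with at least 0.5% of their UMIs from 9 melanoma markers were 295 (1.88%) in Ad-MEM40 and 3 (0.447%) in Ad-COMBO. Without those cells, a check added after the data were seen, the ratios were -1.65 for Dct, -0.45 for Mlana, -1.14 for Tyrp1, -0.61 for Ptgds, -0.85 for Car6 and -0.84 for Syt4.

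**Figure D2:**
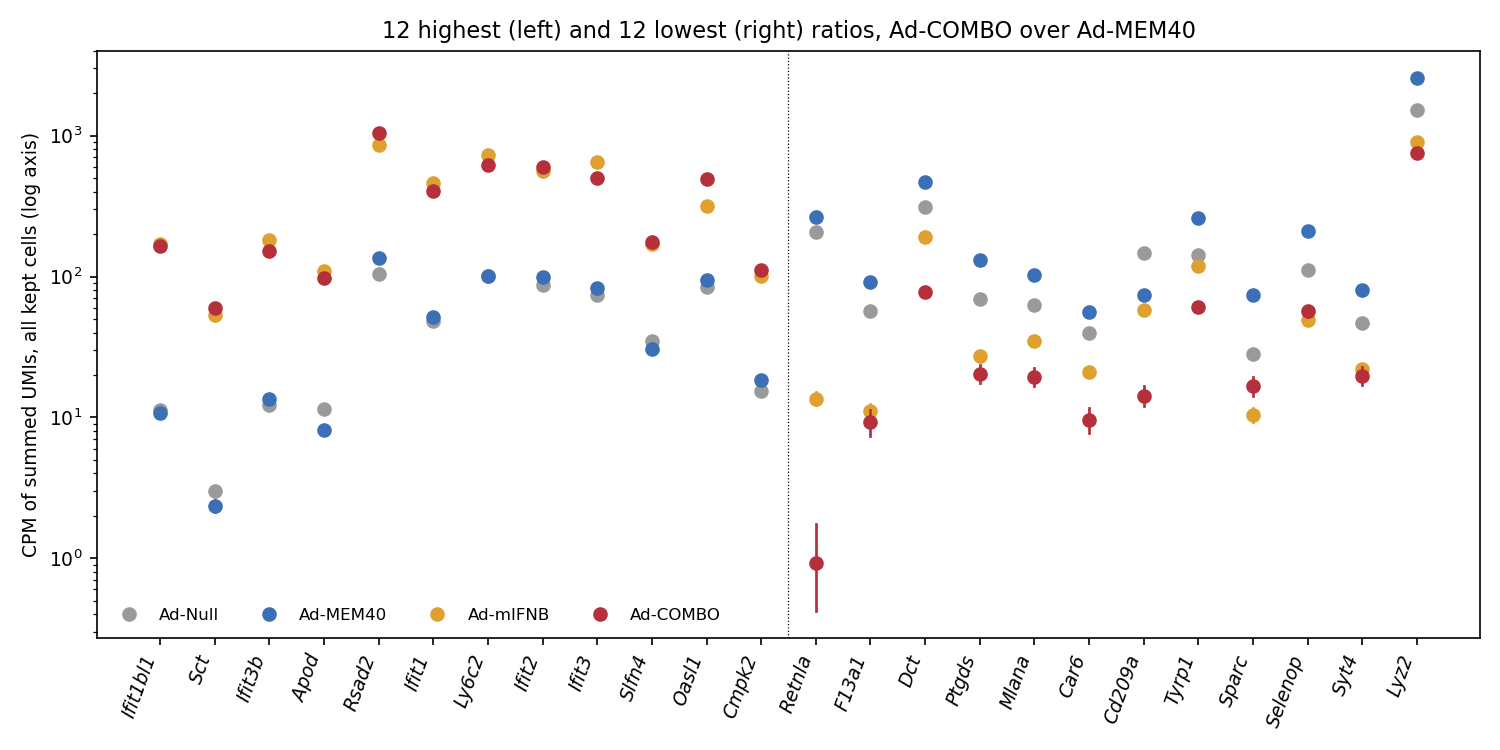
CPM (y axis, log scale) of the 12 highest and 12 lowest genes over all kept cells in the 4 libraries, with 95% Poisson intervals. For the interferon-stimulated genes the points of Ad-COMBO and Ad-mIFNB lie above those of Ad-MEM40 and Ad-Null, and Retnla spans 266 to 0.923 CPM.

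Interferon response genes were higher in every class, and the count per cell was shifted across most cells rather than in a few. The list of type I interferon response genes has 35 members, 33 of them in the files, and all 33 were past 1.5-fold higher over all kept cells, where 9.08% of genes were. Their median log2 ratio was 1.5, from 0.63 to 3.44. Isg15, a ubiquitin-like antiviral protein, had 595 and 2455 CPM (2.04), and Ly6a had the smallest ratio, with 810 and 1260 CPM (0.63). Without the melanoma-gene cells the ratio of Ly6a was 0.55, which left 32 of 33 past 1.5-fold higher, against 8.73% of genes. In Xcr1+Clec9a cells 32 of 32 tested members were higher against 7.13% of genes, with a median of 1.72, and 6 of those passed the level filter only through 1 library. The counts were 33 of 33 in Ccr7+Fscn1 cells against 14.5% (median 1.74, 3 through 1 library only) and 32 of 33 in C1qa+C1qb+C1qc cells against 7.47% (median 1.44, 1 through 1 library only). The exception there was Ifi47, an interferon-inducible GTPase, with 112 and 162 CPM (0.51). Without CD40 ligand the medians of the list in Ad-mIFNB against Ad-Null were 1.57 over all kept cells and 1.71, 1.44 and 1.27 in the 3 classes.

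Levels of these genes differed between classes within each library. Rsad2 had 42.3 CPM in Ad-MEM40 and 463 CPM in Ad-COMBO in Xcr1+Clec9a cells (3.31), 113 and 866 CPM in Ccr7+Fscn1 cells (2.88) and 179 and 1453 CPM in C1qa+C1qb+C1qc cells (2.98). Ad-MEM40 levels of Rsad2 in C1qa+C1qb+C1qc cells were thus above those in Xcr1+Clec9a cells, and the same order held in Ad-COMBO. Ifit1bl1 had 1.25 and 26.6 CPM in Xcr1+Clec9a cells but 9.87 and 167 CPM in C1qa+C1qb+C1qc cells. Irf7, the transcription factor that amplifies interferon production, had 239 and 1124 CPM, 152 and 806 CPM, and 239 and 811 CPM in the Xcr1+Clec9a, Ccr7+Fscn1 and C1qa+C1qb+C1qc classes, with ratios of 2.21, 2.37 and 1.74.

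Counted per cell with each cell thinned to 2000 UMIs, the median number of UMIs from the list was 29 in Ad-COMBO (quartiles 17 and 48) and 11 in Ad-MEM40 (6 and 17). It was 22 and 6 in Xcr1+Clec9a cells, 21 and 7 in Ccr7+Fscn1 cells, 28 and 11 in C1qa+C1qb+C1qc cells and 37 and 11 in ungated cells. The lower quartile of Ad-COMBO thus equalled the upper quartile of Ad-MEM40 over all kept cells, and by class the lower quartiles of 15, 13 and 20 stood beside upper quartiles of 10, 14 and 17. Thinning left out 59 Ad-COMBO and 1200 Ad-MEM40 cells with fewer UMIs. Rsad2 was found in 61.4% of thinned Ad-COMBO cells (57.5 to 65.3) and 16.9% of those of Ad-MEM40, and in 83.6% and 40.7% of unthinned cells. By class the thinned shares were 43.2% and 7.88%, 56.4% and 17.1%, and 71.1% and 20.8%. The interferon receptor is known to be on nearly all cells, so no class gives a level of free Rsad2 RNA to set beside these shares.

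**Figure D3:**
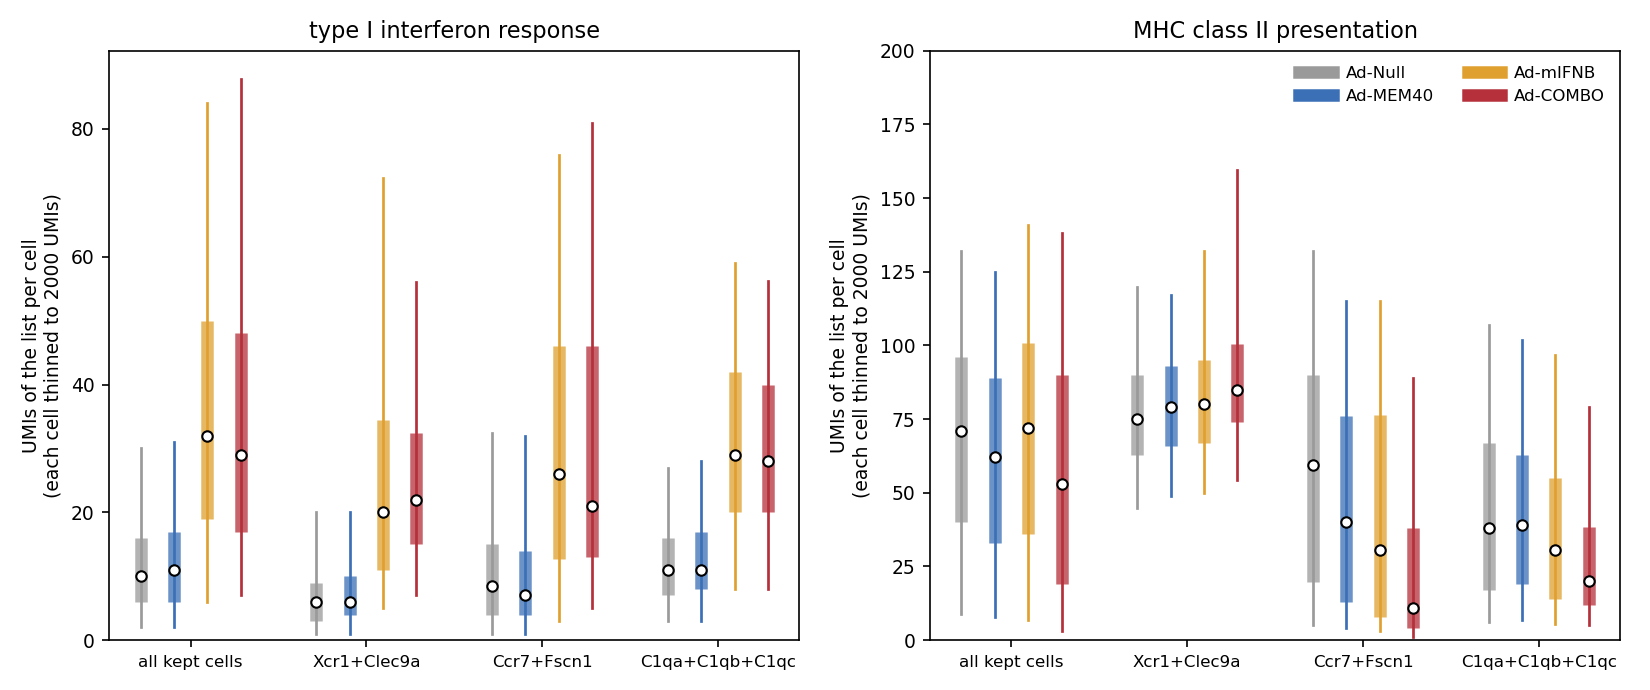
UMIs per cell from the type I interferon response and MHC class II lists, with each cell thinned to 2000 UMIs, by class and library; points are medians, thick bars quartiles and thin lines the 5th to 95th percentiles. Medians of the interferon list lie at 21 to 29 in Ad-COMBO and 6 to 11 in Ad-MEM40, while those of the class II list differ in direction between classes.

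Of the 18 genes of interferon receptor signaling, 5 were past 1.5-fold higher and none lower over all kept cells (median 0.52), against 9.08% and 7.11% of genes, and the receptor genes were not among the 5. Ifnar1 had 73.6 and 81.3 CPM (0.14) and Ifnar2 154 and 144 CPM (-0.09). Of the transducers, Stat2 was at 83.6 and 224 CPM (1.37) and Irf9 at 81.6 and 155 CPM (0.89). The negative regulators Usp18, at 54.2 and 287 CPM (2.30), and Socs1, at 31.5 and 92.2 CPM (1.41), had the highest ratios of this list. Receptor levels were thus close in the pair of libraries, and the feedback genes were well apart.

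Interferon gamma induces an overlapping set of genes, including guanylate-binding proteins and the chemokine Cxcl9. Of 18 tested genes of this list, 10 were higher and 1 was lower over all kept cells, against 9.08% and 7.11% of genes. In C1qa+C1qb+C1qc cells 14 of 18 were higher against 7.47% of genes and 3 were lower against 6.05%, with a median of 1.00. There Gbp5 had 55.8 and 137 CPM (1.23), whereas Cxcl9, a chemokine that attracts T cells, had 503 and 146 CPM (-1.75). Cxcl10, which binds the same receptor, was higher in the same cells, at 412 and 1179 CPM (1.5). The pair of chemokines thus went opposite ways in C1qa+C1qb+C1qc cells, also without CD40 ligand, where Cxcl9 had 560 CPM in Ad-Null and 84.6 CPM in Ad-mIFNB. In Xcr1+Clec9a cells Cxcl9 had 418 and 494 CPM (0.24) and Cxcl10 99.5 and 518 CPM (2.32).

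Dendritic cell maturation genes were higher in the sum and within the mature class, in the latter fewer of them once melanoma-gene cells were left out. Over all kept cells 20 of 20 genes of the maturation list were past 1.5-fold higher against 9.08% of genes (median 1.10), 2 of them through 1 library only, and the mature class was itself a larger share of Ad-COMBO. With classes at the Ad-MEM40 shares 12 of 20 were higher against 7.53% of genes, and the median was 0.65. Within Ccr7+Fscn1 cells, leaving out the gate genes, 14 of 18 were higher against 14.5% of genes (median 0.79). The costimulatory ligand Cd80 had 130 and 328 CPM there (1.31), its partner Cd86 286 and 699 CPM (1.28), and Il15ra, which presents interleukin 15 to T and natural killer cells, 60.7 and 195 CPM (1.61). Cd40, the receptor of the CD40 ligand, had 289 and 505 CPM (0.79), and in the same class of Ad-Null and Ad-mIFNB 146 and 312 CPM (1.07). Without the 29 melanoma-gene cells of this class in Ad-MEM40, 8 of 18 maturation genes were higher against 12.8% of genes, and their median was 0.49. The ratios were then 1.01 for Cd80, 0.98 for Cd86, 1.32 for Il15ra and 0.49 for Cd40, the last under 1.5-fold. Cd70, a costimulatory ligand of the tumor necrosis factor family, had 97.9 and 143 CPM (0.53), a difference under 1.5-fold.

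Targets of CD40 and NF-kB, 24 genes, were higher in 11 cases and lower in none over all kept cells (median 0.54), against 9.08% and 7.11% of genes. By class, 17 were higher in Ccr7+Fscn1 cells against 14.5% of genes (median 0.68), and in Xcr1+Clec9a cells 9 against 7.13% (0.56). In C1qa+C1qb+C1qc cells 5 were higher against 7.47% and 1 was lower against 6.05% (0.08). Without CD40 ligand, 6 were higher over all kept cells against 4.7% of genes. The counts higher were then 12 in Ccr7+Fscn1 cells (8.06% of genes), 2 of 23 tested in Xcr1+Clec9a cells (4.66%) and 0 in C1qa+C1qb+C1qc cells (4.1%). Within Ccr7+Fscn1 cells, leaving out the melanoma-gene cells took the medians to 0.39 for these targets, with 5 of 24 higher, and to 0.49 for the maturation list, with 8 of 18, where 12.8% of genes were higher. The 29 melanoma-gene cells of that class in Ad-MEM40 thus bear on these counts, and Ad-COMBO had none.

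The cytokine genes Il27, Ebi3, Tnf, Il6 and Il15 were past 1.5-fold higher in the mature class. In Ccr7+Fscn1 cells 7 of 13 tested cytokine genes were higher against 14.5% of genes and 2 lower against 21.8% (median 0.61), and 2 of the 13 passed the level filter through 1 library only. Without the melanoma-gene cells 6 were higher and 2 lower (0.35), against 12.8% and 11.6% of genes. Il27 and Ebi3, which encode the subunits of interleukin 27, had 24.2 and 145 CPM (2.36) and 128 and 355 CPM (1.44). Tnf had 149 and 571 CPM (1.90) and Il6 38.3 and 135 CPM (1.70). Il12b, the shared subunit of interleukins 12 and 23, had 766 and 950 CPM (0.31) in the class but 89.5 and 217 CPM (1.23) over all kept cells, or 0.67 with classes at the Ad-MEM40 shares. Il15 had 39.3 and 106 CPM (1.33) in the class. Il1b went the other way in other classes, with 542 and 203 CPM (-1.40) in Xcr1+Clec9a cells and 489 and 294 CPM (-0.73) in C1qa+C1qb+C1qc cells. Il10, an inhibitory cytokine, had 27.9 and 75.2 CPM (1.29) in C1qa+C1qb+C1qc cells.

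Chemokine genes split by class. In C1qa+C1qb+C1qc cells 10 of 17 tested were higher against 7.47% of genes and 3 lower against 6.05% (median 0.77), and 3 of the 17 passed the level filter through 1 library only. In Ad-mIFNB against Ad-Null 6 of 18 were higher against 4.1% and 1 was lower against 2.42%. The mature class had 4 of 16 higher against 14.5% and 7 lower against 21.8%. The monocyte attractants Ccl2, Ccl7, Ccl8 and Ccl12 had, in C1qa+C1qb+C1qc cells, 1183 and 2176 CPM (0.88), 892 and 1539 CPM (0.78), 623 and 1088 CPM (0.80) and 438 and 1103 CPM (1.32). Without CD40 ligand Ccl12 had 531 and 479 CPM (-0.15). Ccl5, a T cell attractant, had 4381 and 9994 CPM (1.19) in Ccr7+Fscn1 cells, 245 and 772 CPM (1.63) in C1qa+C1qb+C1qc cells and 46.4 and 39.3 CPM (-0.21) in Xcr1+Clec9a cells. The neutrophil attractant Cxcl2 was lower over all kept cells, at 2231 and 815 CPM (-1.45), but with classes at the Ad-MEM40 shares the ratio was -0.60. Within C1qa+C1qb+C1qc cells, where its level was highest of the 3 classes, Cxcl2 had 3704 and 2789 CPM (-0.41), under 1.5-fold.

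The checkpoint ligand gene Cd274, which encodes PD-L1, was past 1.5-fold higher in each class. It had 59.4 and 152 CPM (1.29) in Xcr1+Clec9a cells, 455 and 1061 CPM (1.21) in Ccr7+Fscn1 cells and 162 and 354 CPM (1.10) in C1qa+C1qb+C1qc cells. Of the 18 inhibitory molecules, 17 are in the files, and 8 of 13 tested were higher in C1qa+C1qb+C1qc cells against 7.47% of genes, with none lower. The mature class had 7 of 14 higher and 3 lower, against 14.5% and 21.8%. Without the melanoma-gene cells 7 of 14 were higher and 5 lower, against 12.8% and 11.6%. In Xcr1+Clec9a cells 3 of 9 were higher and 1 lower, against 7.13% and 7.85%. Those higher in C1qa+C1qb+C1qc cells included Il18bp, a decoy for interleukin 18, at 54.8 and 155 CPM (1.42), and the interleukin 1 receptor antagonist gene Il1rn at 153 and 325 CPM (1.06).

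Antigen presentation divided by MHC class. Some MHC class I genes were past 1.5-fold higher and none past 1.5-fold lower in each gated class, while most MHC class II genes were lower in the mature and macrophage-gated cells and none was past 1.5-fold in cDC1-gated cells. Of 20 MHC class I genes, 14 were higher over all kept cells against 9.08% of genes (median 0.76) and 15 in Ccr7+Fscn1 cells against 14.5% (0.88). In Xcr1+Clec9a cells 9 were higher against 7.13% (0.47) and in C1qa+C1qb+C1qc cells 9 against 7.47% (0.52), both medians being under 1.5-fold. The light chain gene B2m had 1419 and 2674 CPM (0.91), 2881 and 6368 CPM (1.14), and 2654 and 5260 CPM (0.99) in these classes. The heavy chain gene H2-K1 had 1200 and 1907 CPM (0.67), 2487 and 4472 CPM (0.85), and 1875 and 3230 CPM (0.78). The nonclassical gene H2-T23, whose product binds natural killer receptors, had ratios of 1.34, 1.62 and 1.39. Within Ccr7+Fscn1 cells, leaving out the melanoma-gene cells gave 12 of 20 class I genes higher against 12.8% of genes (median 0.69). The ratios there were then 0.98 for B2m, 0.68 for H2-K1 and 1.43 for H2-T23. Of the immunoproteasome subunit genes, Psmb8 had 1624 and 1263 CPM (-0.36), 1165 and 1210 CPM (0.05), and 690 and 599 CPM (-0.20) in these classes. Psmb9 had ratios of 0.21, 0.76 and 0.22, and Psmb10 -0.25, 0.23 and -0.25. H2-Q6 and H2-Q7 are near-identical, so their separate values are uncertain.

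Of the 12 MHC class II presentation genes, 1 was higher and none lower over all kept cells (median 0.10), against 9.08% and 7.11% of genes, and none was past 1.5-fold in Xcr1+Clec9a cells (0.13). In Ccr7+Fscn1 cells 10 of 12 were lower against 21.8% of genes (median -0.94), and in C1qa+C1qb+C1qc cells 9 of 11 tested were lower against 6.05%, with 1 higher (-0.97). H2-Ab1, a class II beta chain, had 8325 and 9251 CPM (0.15) in Xcr1+Clec9a cells, 3872 and 1982 CPM (-0.96) in Ccr7+Fscn1 cells and 3619 and 1743 CPM (-1.05) in C1qa+C1qb+C1qc cells. Cd74, the invariant chain, had 9136 and 5898 CPM (-0.63) in Ccr7+Fscn1 cells and 8191 and 4191 CPM (-0.97) in C1qa+C1qb+C1qc cells. Ciita, the master transcriptional regulator of class II genes, had 215 and 221 CPM (0.04), 90.7 and 40.9 CPM (-1.06), and 96.7 and 28.9 CPM (-1.58) in the Xcr1+Clec9a, Ccr7+Fscn1 and C1qa+C1qb+C1qc classes. Only Ctss, the protease that trims the invariant chain, was higher in C1qa+C1qb+C1qc cells, at 2548 and 5026 CPM (0.98). Per cell thinned to 2000 UMIs, the median number of class II UMIs was 85 in Ad-COMBO and 79 in Ad-MEM40 Xcr1+Clec9a cells, 11 and 40 in Ccr7+Fscn1 cells and 20 and 39 in C1qa+C1qb+C1qc cells. Without CD40 ligand the list's medians in Ad-mIFNB against Ad-Null were -0.28 in Ccr7+Fscn1 cells, with 3 of 12 lower against 10% of genes, and -0.30 in C1qa+C1qb+C1qc cells, with 1 lower against 2.42%. The difference between these contrasts was not tested. Cells were sorted on MHC class II protein, which limits how low a sorted cell can be. Within Ccr7+Fscn1 cells the median was -1.22 without the melanoma-gene cells. Markers of other cell types moved with the class II genes there: 12 macrophage markers summed to 847 CPM in Ad-MEM40 and 243 CPM in Ad-COMBO, with 9 of 10 tested lower, and 12 markers of type 2 dendritic cells to 617 and 427 CPM, with 5 of 9 lower. Their part in the class II values was not tested.

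**Figure D4:**
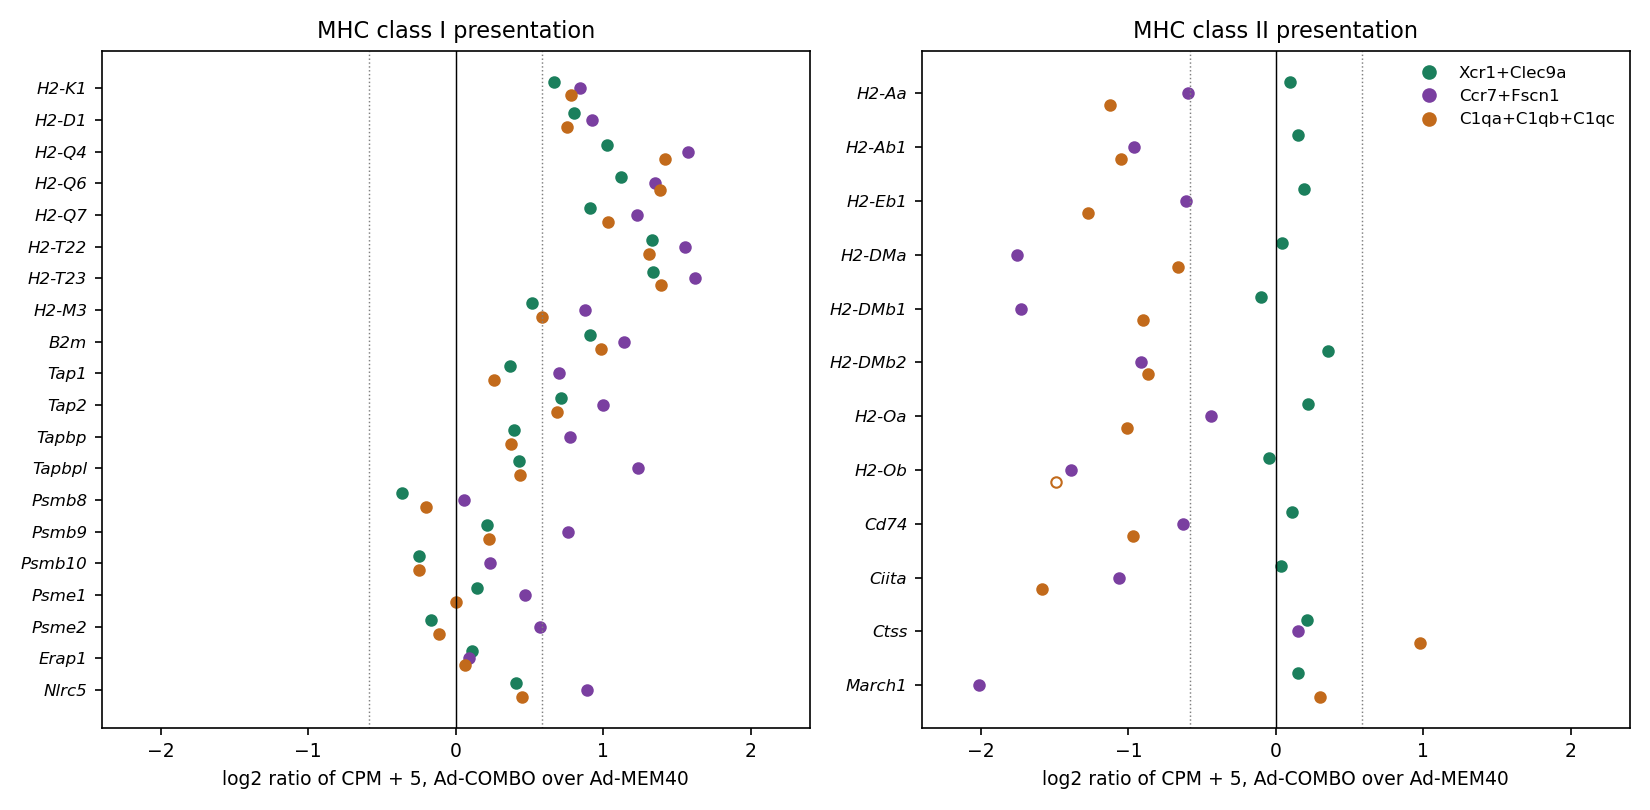
Log2 ratio of CPM, Ad-COMBO over Ad-MEM40 (x axis), for each MHC class I and class II presentation gene in the 3 gated classes; dotted lines mark 1.5-fold and open points are genes under the level filter. Class II genes lie near 0 in Xcr1+Clec9a cells and mostly left of the lower line in the other classes, with Ctss at 0.98 in C1qa+C1qb+C1qc cells.

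Xcr1+Clec9a cells of Ad-COMBO had lower levels of proliferation genes. Of 20 cell cycle genes 16 were lower there against 7.85% of genes, and none was higher (median -0.95). Top2a, which untangles replicated DNA, had 310 and 136 CPM (-1.17), Birc5, a mitotic regulator, 146 and 47.7 CPM (-1.52), and Mki67 305 and 190 CPM (-0.67). Replication-dependent histone genes, which are expressed in S phase, were lower in 8 of 10 tested against 7.85% (median -1.48), and near-identical copies make single histone genes uncertain. Without CD40 ligand 11 cell cycle genes were lower in the same class against 2.46% of genes (-0.67). In C1qa+C1qb+C1qc cells 5 of 20 were lower against 6.05% (-0.26), and 12 without CD40 ligand against 2.42% (-0.64). Over all kept cells 14 of 20 were lower against 7.11% (-0.77). In Ccr7+Fscn1 cells 11 of 16 tested cell cycle genes were lower against 21.8% (-1.56), and 7 of 7 tested histone genes (-2.43). Of these 16 and 7, 6 each passed the level filter through 1 library only. That class of Ad-MEM40 held 29 melanoma-gene cells, and that of Ad-COMBO none.

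Other named genes of the Xcr1+Clec9a class were Ifit2, Ifit3, Oasl1, Apod and Slfn4 at the high end. At the low end, Ccr2, the receptor that guides monocyte-lineage cells, had 241 and 44.5 CPM (-2.31), and Gpr183, an oxysterol receptor that positions dendritic cells, had 83.9 and 14.7 CPM (-2.17). Lyz2 (420 and 66.0 CPM, -2.58), Cxcl2 (237 and 53.6 CPM, -2.04) and Ifitm1 (151 and 33.4 CPM, -2.02) were also lowest. Lyz2 moved with the 12 macrophage markers, whose summed CPM in this class was 407 and 187, and their part in the Lyz2 value was not tested. Genes of dissociation and heat stress were higher in 8 of 16 cases in this class against 7.13% of genes, with none lower (median 0.57), among them Zfp36, a regulator of mRNA decay, at 593 and 1181 CPM (0.99), and their part in the other values was not tested. Ccr7, which is not a gate gene of this class, had 20.1 and 106 CPM (2.15) in cells that did not pass the Ccr7+Fscn1 gate.

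In Ccr7+Fscn1 cells 1058 of 7272 tested genes (14.5%) were past 1.5-fold higher and 1582 (21.8%) lower, more than in the other 2 gates, and the class was the one of the 3 with fewest UMIs. Without the 29 melanoma-gene cells of Ad-MEM40, 886 of 6922 (12.8%) were higher and 802 (11.6%) lower. The named genes at the high end were Sct, at 2.54 and 146 CPM (4.32), Ly6c2, at 51.0 and 674 CPM (3.60), Olfr655, an olfactory receptor gene, at 10.2 and 119 CPM (3.03), and Ifit1bl1, Ifit3b and Ifit1. Some of these rest on few cells. Of 140 Olfr655 UMIs in Ad-COMBO, 77 were in 1 cell and all were in 4 of 109 cells, and of 171 Sct UMIs 74 were in 1 cell and all were in 16 cells. Ly6c2 had 792 UMIs in 22 cells, 150 of them in 1 cell. These genes stood beside markers of plasmacytoid dendritic cells, whose 10 genes summed to 226 CPM in Ad-MEM40 and 616 CPM in Ad-COMBO in this class, and the part of such cells was not tested.

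The 6 lowest genes of the class were Dct, Tyrp1, Ptgds, Sparc, Pmel and Lyz2. Dct had 1050 and 3.40 CPM (-6.97), and Sparc 189 CPM and no UMI. The 9 melanoma markers summed to 2593 CPM in Ad-MEM40 and 23 CPM in Ad-COMBO, with Sox10, Cdh19 and Syngr1 at 0 in the latter, and the 7 fibroblast markers to 333 CPM and 0. In Ad-MEM40 29 of 832 cells held 97.5% of the melanoma-marker UMIs. Without them the ratios were -2.00 for Dct, -0.96 for Tyrp1, -0.76 for Ptgds and -0.28 for Pmel, while Lyz2 had -5.45. Of the hypoxia and glycolysis genes 14 of 16 were lower against 21.8% of genes (median -1.43). Without those cells 6 of 15 were lower against 11.6% (-0.52).

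In C1qa+C1qb+C1qc cells the genes highest in Ad-COMBO, besides Ifit1bl1, Rsad2, Cmpk2 and Slfn4, were Pou3f1, a POU-domain transcription factor, and Ctsk, the collagen-degrading protease cathepsin K. Pou3f1 had 3.42 and 58.9 CPM (2.92), from 34 of 96 Ad-COMBO cells and 189 of 5152 Ad-MEM40 cells. Ctsk had 8.27 and 81.0 CPM (2.70), with all 154 Ad-COMBO UMIs in 16 cells and 76 of them in 1 cell. Without CD40 ligand they had 3.86 and 35.8 CPM and 8.82 and 33.6 CPM. Ly6c2, high in the other classes, was lower here, at 79.5 and 27.9 CPM (-1.36).

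Phagocytosis and lysosome genes were higher in these cells in 11 of 19 tested against 7.47% of genes, with none lower (median 0.64). Without CD40 ligand 6 were higher against 4.1% and 1 lower against 2.42% (0.40). The cathepsin genes Ctsl, Ctsb and Ctsd had 802 and 2253 CPM (1.48), 3231 and 5350 CPM (0.73), and 1436 and 2317 CPM (0.69). The scavenger receptor gene Msr1 had 180 and 503 CPM (1.46) and Mertk, a receptor for apoptotic cells, 33.9 and 78.4 CPM (1.10). Per cell thinned to 2000 UMIs the median from this list was 28.5 and 20. The same list was lower in Ccr7+Fscn1 cells in 10 of 17 tested against 21.8% of genes and higher in 2 against 14.5% (-0.76). Without the melanoma-gene cells 8 of 16 were lower and none higher (-0.54), against 11.6% and 12.8% of genes.

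Genes of alternative activation and of monocyte-derived cells were lower in 5 of 12 tested in C1qa+C1qb+C1qc cells against 6.05% of genes and higher in 2 against 7.47% (median -0.35). Retnla had 477 and 4.73 CPM (-5.63), F13a1 169 and 37.3 CPM (-2.04) and Ccr2 227 and 110 CPM (-1.01), whereas Arg1, at 287 and 353 CPM (0.29), and the mannose receptor gene Mrc1, at 412 and 474 CPM (0.20), were under 1.5-fold. The list's members thus did not share 1 direction. In Ad-MEM40, Retnla UMIs were found in 21.5% of unthinned C1qa+C1qb+C1qc cells but also in 13.8% of Xcr1+Clec9a cells, which should lack it, at median depths of 11014 and 13185 UMIs. In Ad-COMBO they were found in 4.17% (4 of 96) and in 0 of 112, at 16315.5 and 23454 UMIs. The C1qa+C1qb+C1qc share in Ad-MEM40 was thus above this background, and 963 Retnla UMIs lay in 1 cell. Pmel, Dct, Tyrp1, Sparc and Ptgds were the other lowest genes, and without melanoma-gene cells (64 in Ad-MEM40, 0 in Ad-COMBO) their ratios were -0.94, -0.69, -0.54, -2.15 and -0.23.

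**Figure D5:**
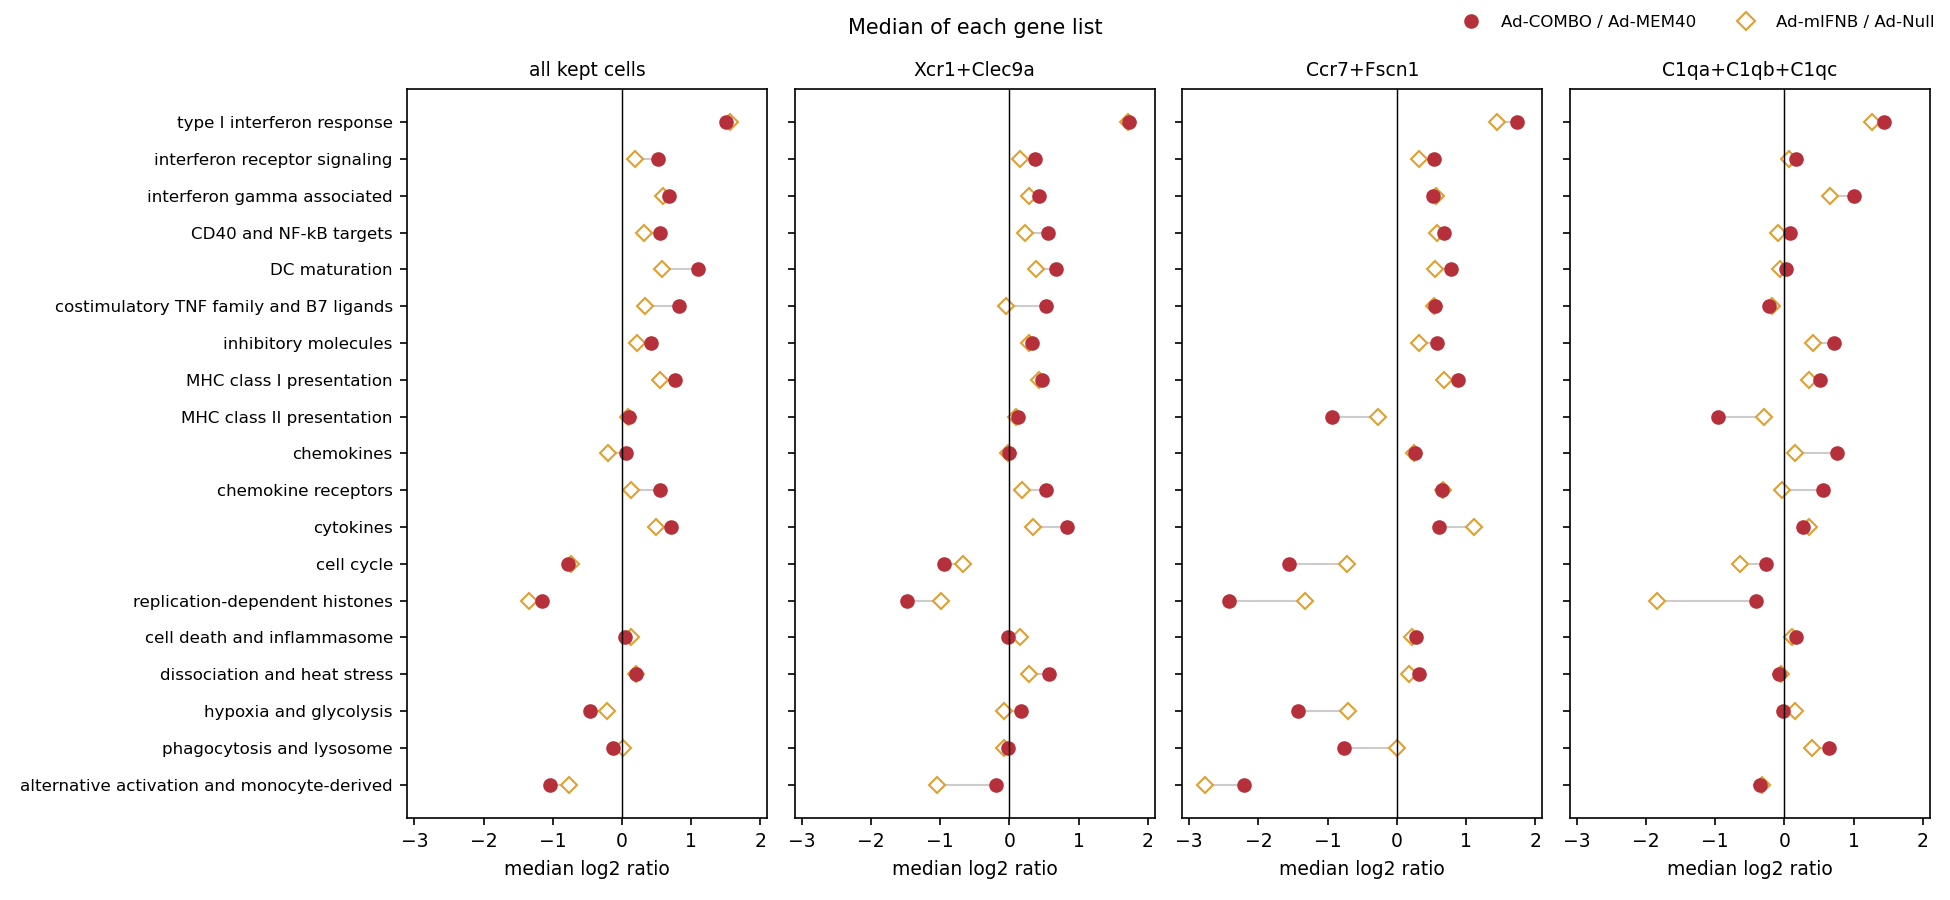
Median log2 ratio of each of the 19 gene lists in all kept cells and the 3 gated classes; filled red circles are Ad-COMBO over Ad-MEM40 and open diamonds Ad-mIFNB over Ad-Null. The type I interferon list lies between 1.27 and 1.74 for both contrasts in every class, and the MHC class II list lies at -0.94 and -0.97 in the Ccr7+Fscn1 and C1qa+C1qb+C1qc classes.

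Adding interferon beta to CD40 ligand was set beside adding it to the NULL virus, a contrast that shares no library with it. The latter had 353 of 7505 tested genes past 1.5-fold higher (4.7%) and 174 lower (2.32%). The difference of the log2 ratios was highest for Plet1, Itgae, Klk1, Txndc16 and Hist1h2ap and lowest for Retnla, Dct, Tyrp1, Mlana and Tppp3. These differences were not tested. Without the melanoma-gene cells they went from -1.83 to -0.60 for Dct, from -1.78 to -0.31 for Tyrp1 and from -1.39 to -0.25 for Mlana, so these 3 of the 5 lowest rest on those cells. With classes at the Ad-MEM40 shares the difference for Itgae went from 1.53 to 0.97. Itgae, which encodes the CD103 integrin of cDC1, had 32.6 and 133 CPM (1.88) with CD40 ligand and 51.1 and 66.5 CPM (0.35) without it. Plet1, a surface protein gene, had 15.5 and 56.9 CPM (1.60) against 30.6 and 22.3 CPM (-0.38). Ad-COMBO was thus above the other libraries for Itgae and Plet1, and Ad-MEM40 was the lowest.

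A higher Itgae level was also seen within Xcr1+Clec9a cells, where it had 181 and 422 CPM (1.20) against 225 and 305 CPM (0.43). Thinned to 2000 UMIs, 55.0% of Ad-COMBO and 30.3% of Ad-MEM40 Xcr1+Clec9a cells had an Itgae UMI, against 1.11% and 1.04% in C1qa+C1qb+C1qc cells, which should lack it, where unthinned median depths were 16315.5 and 11014 UMIs and shares 4.17% and 4.46%. Unthinned, the Xcr1+Clec9a shares were 89.3% and 72.3% at medians of 23454 and 13185 UMIs. Plet1 had 64.6 and 165 CPM (1.29) in the class, with thinned shares of 19.8% and 7.19%, and Txndc16 154 and 312 CPM (1.00). Klk1, a kallikrein gene on the plasmacytoid marker list, had 14.1 and 82.2 CPM (2.19) over all kept cells and 3.49 and 2.38 CPM in Xcr1+Clec9a cells. The plasmacytoid markers summed to 382 and 1077 CPM in ungated cells, and their part in the Klk1 value was not tested. Hist1h2ap had 270 and 82.0 CPM (-1.66) against 725 and 81.5 CPM (-3.08), so the 2 libraries with interferon beta were close and the controls were not.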

How the data were processed

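Single-cell RNA was measured in 4 libraries, 1 for each virus treatment, each pooled from 3 tumors. The count values are whole UMI counts per gene and cell in filtered matrices that the authors deposited; per the file headers they were written by Cell Ranger 6.0.0, while the submitters' processing notes name Cell Ranger 3.0, Seurat 4.0 and mm10. Whether doublets were removed before deposit is not given in the sources used here, and none were removed here. UMIs were summed over kept cells and scaled to CPM with Python 3.11.15, NumPy 2.4.6, SciPy 1.17.1 and pandas 2.3.3, and drawn with matplotlib 3.10.9. Depth was 671 cells and 9748429 UMIs in Ad-COMBO and 15656 cells and 181854752 UMIs in Ad-MEM40, which sets the Poisson and Clopper-Pearson intervals. Classes required at least 1 UMI of each gate gene. Genes were tested at a mean of 10 CPM and called at 1.5-fold. Named genes had at least 50 CPM in 1 library and 50 UMIs over both: the 12 highest and 12 lowest over all kept cells, the 6 highest and 6 lowest in each gate, the 5 highest and 5 lowest differences between the contrasts, and any list member. Mitochondrial, ribosomal, haemoglobin, immunoglobulin, T cell receptor, Xist, Y-linked, Gm and Rik genes were left out of that ranking. The comparison, its classes and the 19 response and 14 marker lists were chosen with earlier results of these data known. Of the 433 genes on the lists, 428 are in the files; Mx1, Mx2, Lilrb4b, Cxcl11 and Aldoa were not analysed here. Alternatives changed the pseudocount, scaling (edgeR 4.0.16 TMM in R 4.3.3, median of ratios), cell, gene and doublet filters (Scrublet in scanpy 1.11.5), cell weighting, depth, gates and class shares. The summing was tested on simulated data.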

Additional observations from a re-analysis of the deposited data

Results flagged for a closer look

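Egr1, an immediate-early transcription factor gene, went opposite ways in Ccr7+Fscn1 cells with and without CD40 ligand. It had 315 CPM in Ad-MEM40 and 604 CPM in Ad-COMBO (log2 ratio 0.93), against 186 CPM in Ad-Null and 93.5 CPM in Ad-mIFNB (-0.96), a difference of 1.88. Egr1 is on the list of dissociation and heat stress genes, of which 5 of 16 were higher in that class with CD40 ligand, against 14.5% of genes. The difference was not tested.

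In the Ad-COMBO to Ad-MEM40 contrast 4 listed genes had opposite signs in Ccr7+Fscn1 and C1qa+C1qb+C1qc cells. The lysosomal protease genes Ctsb and Ctsd were lower in the former, at 516 and 303 CPM (-0.76) and 228 and 90.2 CPM (-1.29), and higher in the latter (0.73 and 0.69), so the differences between classes were -1.49 and -1.98. Marcksl1, a regulator of the actin skeleton, had 601 and 1098 CPM (0.86) in Ccr7+Fscn1 cells and 128 and 76.3 CPM (-0.71) in C1qa+C1qb+C1qc cells, a difference of 1.57. Traf1, an adaptor of tumor necrosis factor receptors, had 901 and 1451 CPM (0.69) and 139 and 79.4 CPM (-0.77), a difference of 1.46. Without the 29 melanoma-gene cells of Ad-MEM40 in Ccr7+Fscn1 cells the ratio there was 0.38 for Traf1, under 1.5-fold, and 0.59 for Marcksl1, at the 1.5-fold line. None of these differences was tested. Macrophage markers summed to 847 CPM in Ad-MEM40 and 243 CPM in Ad-COMBO in Ccr7+Fscn1 cells, and their part in the Ctsb and Ctsd values there was not tested.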

How the results depend on the processing

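No paired analysis was possible because each treatment has 1 library. Counts past 1.5-fold depended on settings that act on low genes and, in Ccr7+Fscn1 cells, also on the melanoma-gene cells. There genes lower went from 1582 to 802 without those cells. Every value here rests on 671 Ad-COMBO cells and on 96 to 112 of them in a class. Of 168 gene values by class, 154 were past 1.5-fold, and none of these reversed its sign under the alternatives run. The median of the type I interferon list stayed between 1.22 and 1.92 in every class and setting, and that of MHC class II between -1.46 and -0.75 in Ccr7+Fscn1 cells and between -1.03 and -0.76 in C1qa+C1qb+C1qc cells. Scaling moved the median gene by at most 0.07 (log2).

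With a pseudocount of 20 CPM, counts past 1.5-fold were 683 over all kept cells (439 higher, 244 lower), 561 in Xcr1+Clec9a cells (307 and 254), 1636 in Ccr7+Fscn1 cells (687 and 949) and 552 in C1qa+C1qb+C1qc cells (343 and 209), and the interferon median in Xcr1+Clec9a cells was 1.41. Thinning cells to 2000 UMIs gave 2300 genes (1134 and 1166) in Xcr1+Clec9a and 2526 (1334 and 1192) in C1qa+C1qb+C1qc cells. Genes whose ratio differed by over 1.5-fold between adding interferon beta with and without CD40 ligand numbered 351, and 165 with the 20 CPM pseudocount, 890 after thinning, 528 with each cell weighted equally, 560 without the level filter and 230 at the Ad-MEM40 class shares. In Ccr7+Fscn1 cells, genes lower were 968 with equal cell weights, 2926 of 4313 past 1.5-fold without the level filter, 907 with a gate of 2 UMIs and 802 of 1688 without melanoma-gene cells. Without the level filter 821 genes were lower in C1qa+C1qb+C1qc cells. At the Ad-MEM40 class shares 348 genes were lower over all kept cells and the class II median there was -0.25. A gate of 2 UMIs took the class II median in Ccr7+Fscn1 cells to -1.46 and the Xcr1+Clec9a share ratio to 2.57, and keeping cells of more than 1 gate took the Ccr7+Fscn1 share ratio to 1.80. Reversals of list medians were counted only for medians past 1.5-fold in the main setting. Those were cytokines over all kept cells with equal cell weights (-0.079), cytokines (-0.061) and chemokine receptors (-0.33) in Ccr7+Fscn1 cells without the level filter, and the latter with cells of more than 1 gate kept (-0.40). Some smaller medians changed sign too. At the Ad-MEM40 class shares, over all kept cells, MHC class II went from 0.10 to -0.25 and phagocytosis and lysosome from -0.13 to 0.58. Scrublet's automatic threshold marked 0 Ad-MEM40 cells, so its expected share of 12.5% was removed, against 3 cells in Ad-COMBO. The causes of these shifts were not tested.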

Other observations

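Saa3, an acute-phase protein gene of macrophages, had 129 CPM in Ad-MEM40 and 796 CPM in Ad-COMBO in C1qa+C1qb+C1qc cells (log2 ratio 2.58), and 34.9 and 351 CPM in Ad-Null and Ad-mIFNB (3.16). Each virus alone was above Ad-Null and the library with both was the highest. Saa3 was chosen here after its values were seen.

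In Ccr7+Fscn1 cells 4 of 9 tested ligands of the tumor necrosis factor and B7 families were past 1.5-fold higher against 14.5% of genes and none was lower, among them Tnfsf9, which encodes the 4-1BB ligand, at 188 and 368 CPM (0.95). Without the melanoma-gene cells 4 of 9 were higher and 1 lower, against 12.8% and 11.6% of genes. Tnfsf4, the OX40 ligand gene, had 34.4 and 22.1 CPM (-0.54) with CD40 ligand and 23.6 and 41.2 CPM (0.69) without it. Among chemokine receptors, Ccr2 was lower in all 3 classes, at 73.9 and 5.11 CPM (-2.96) in Ccr7+Fscn1 cells, and Ccr9, a plasmacytoid dendritic cell receptor, had 15.5 and 49.2 CPM (1.40) over all kept cells.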
